A study of Mus musculus with 7 samples.

Results

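The 26S proteasome is the protease that degrades most short-lived and damaged proteins of the cell. Its 20S core is a barrel of alpha rings, which form the gate, and beta rings, of which the subunits encoded by Psmb5, Psmb6 and Psmb7 cut peptide bonds. The 19S regulatory particle sits on the end of the barrel, where its base binds ubiquitin chains and, driven by ATPases, unfolds the substrate, and its lid removes the chains. Dedicated chaperones assemble both particles, and other activators, such as the PA28 rings, open the core without ubiquitin. In inflamed cells the catalytic subunits can be exchanged for those of the immunoproteasome, encoded by Psmb8, Psmb9 and Psmb10. Neutrophils, which live for a short time, use the proteasome to turn over survival proteins such as MCL1.

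The genes described are the constitutive subunits of the proteasome with their assembly chaperones, activators and inhibitor. They were chosen by symbol, from the families Psma to Psmg without the 3 immunoproteasome genes, with at least 1 RPKM on average over all libraries. RPKM is the number of reads of a gene divided by the length of its transcript and by the depth of its library. Of 48 genes with such a symbol, 43 were members, among 16047 genes in the table, of which 9594 averaged at least 1 RPKM and were tested. Beside the 3 immunoproteasome genes, 2 were left out for a low mean, and both encode tissue-specific core subunits. Psma8, of the testis, had 1.33 RPKM in PBS replicate 7 and at most 0.496 RPKM elsewhere, and Psmb11, of the thymus, had 1.18 RPKM in MC-21 replicate 3 and at most 0.354 RPKM elsewhere.

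RNA-seq had been performed on neutrophils sorted from livers of C57BL/6 mice, 24 h into acetaminophen-induced liver injury (AILI). All mice received acetaminophen. The 4 PBS mice (replicates 5 to 8) were injected with PBS, and the 3 MC-21 mice (replicates 2 to 4) with 400 µL of medium holding 29 µg/mL of MC-21, an antibody against mouse CCR2 that depletes Ly6Chi monocytes, from 12 h before acetaminophen and every 24 h. From each liver, 50000 cells were sorted as CD11b+, Ly6Clo, CX3CR1-GFP- and Ly6G+, and each library came from 1 liver. The labels give no age and no reporter genotype, and the study's methods name young adult males. The comparison asks which transcripts of the neutrophils differ when Ly6Chi monocytes are depleted from the injured liver.

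In a transcript of 1 kb, 1 RPKM stood for 1.59 reads in the shallowest library (MC-21 replicate 3) and 3.96 reads in the deepest (PBS replicate 8). The 8 neutrophil markers summed to between 17930 and 30440 RPKM in PBS libraries and between 27310 and 40740 RPKM in MC-21 libraries. Markers of monocytes and macrophages, of which 14 of 15 were in the table and none of these was at 0 in every library, summed to between 524.9 and 596.8 RPKM in PBS libraries and between 244.8 and 313.9 RPKM in MC-21 libraries. Summed ranges of hepatocyte markers (212 to 464 RPKM against 218 to 351 RPKM) and endothelial markers (759.6 to 1301 RPKM against 748.1 to 911 RPKM) overlapped. So did those of lymphocyte markers (16.02 to 38.05 RPKM against 11.9 to 18.3 RPKM) and eosinophil markers (10.4 to 19.5 RPKM against 8.82 to 15.6 RPKM). Of the 5 eosinophil markers, 2 were in the table and only 1, Siglecf, averaged at least 1 RPKM. In sorted bulk samples, fewer cells of a type and less RNA per cell cannot be told apart.

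No gene of the constitutive proteasome differed between MC-21 and PBS neutrophils after adjustment. Differences were computed with limma on log2(RPKM + 1) over all 9594 genes, and a log2 fold change is MC-21 minus PBS on that scale, which understates changes of genes with few reads. After adjustment over the whole table by Benjamini-Hochberg, 0 of the 43 members had an adjusted p under 0.05, against 0.625% of all genes, and the lowest adjusted p of a member was 0.237. An unadjusted p under 0.05 was reached by 1 member (2.33%), Psme1, against 14.7% of all genes. The groups did not overlap in 3 members (6.98%), Psme1, Psmb3 and Psmg2, against 13.3% of all genes. These p-values measure the spread between livers.

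Most members were lower in MC-21 neutrophils by about as much as the whole table was. The log2 fold change was below 0 in 36 of the 43 members (83.7%), against 69.4% of all genes, and it ran from -0.72 to 0.22. Its median was -0.16 over the members and -0.15 over all genes tested. Centring each library on its median, which adds 0.164 to the log2 fold change of every gene, moved the median of all genes to 0.02 and that of the members to 0.00494, with 21 members below 0. After this centring, 4539 of all 9594 genes were below 0. With quantile normalization 27 members were below 0, against 4926 of all 9594 genes. When MC-21 replicate 4 was left out, 25 members were, against 6067 of the 9656 genes tested then. The 95% interval of the log2 fold change lay within a 2-fold change either way in 38 members and within 1.5-fold in 21. Of all 9594 genes, 7169 and 2479 met these bounds. Of the 5860 genes that averaged at least 5 RPKM, 4703 and 2030 did.

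**Figure D1:**
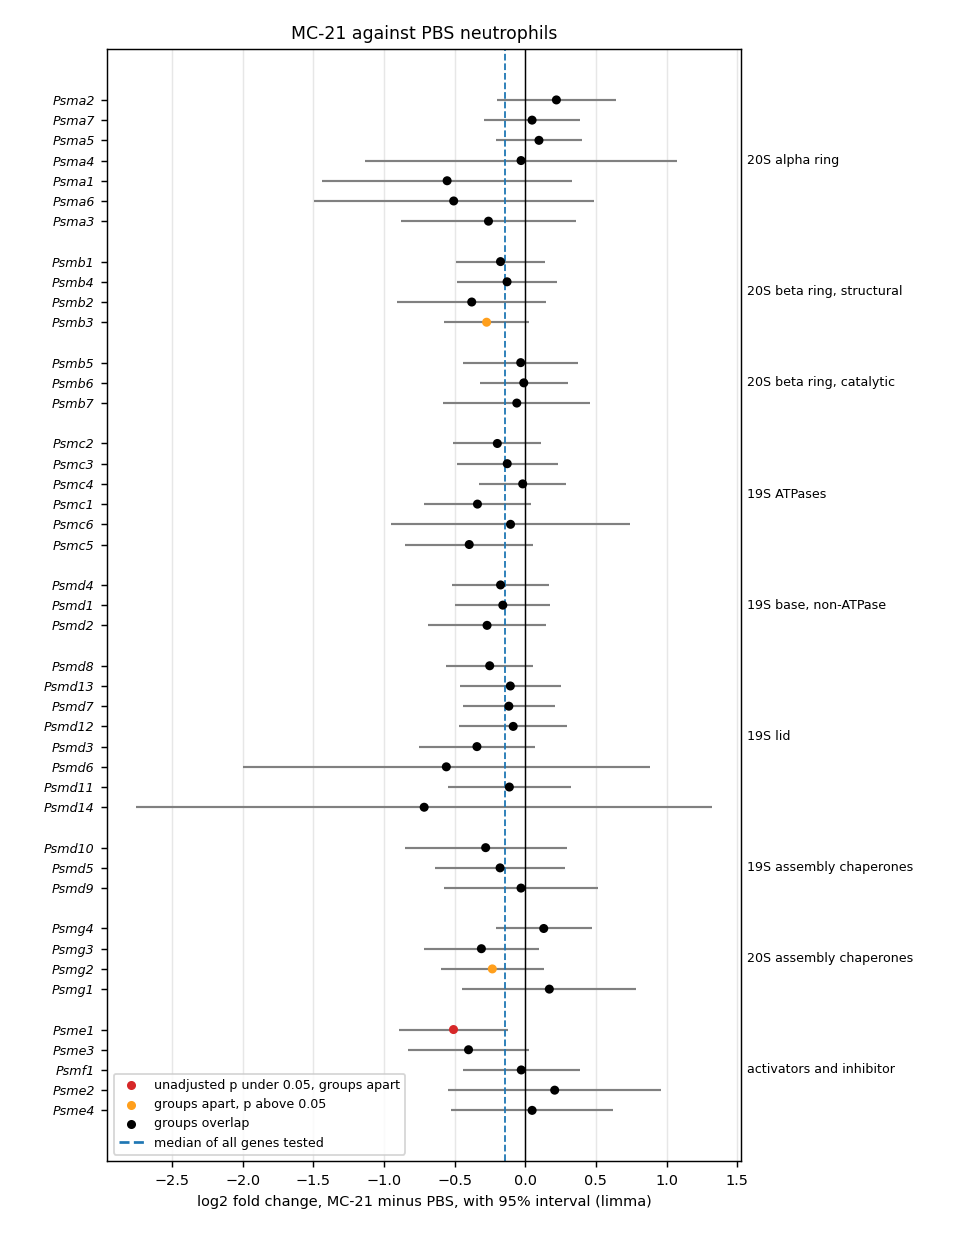
Log2 fold change (MC-21 minus PBS, on log2(RPKM + 1), horizontal axis) of each of the 43 members, grouped by role, with points for limma's estimate, bars for its 95% interval and a dashed line for the median of all genes tested. Most points lie near the dashed line at -0.15, and Psme1 is the member whose interval, from -0.89 to -0.12, leaves out 0.

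The catalytic subunits of the core had nearly the same level in both groups. Psmb5, which encodes the chymotrypsin-like subunit, had 189, 273, 199.9 and 189 RPKM in PBS replicates 5 to 8 and 246, 208 and 170.1 RPKM in MC-21 replicates 2 to 4. PBS replicate 6 was the highest library, MC-21 replicate 4 the lowest, and the groups overlapped. The log2 fold change was -0.03 (standard error 0.18, 95% interval -0.44 to 0.37, adjusted p = 0.951 from limma). Psmb6, of the caspase-like subunit, had 195, 158, 149 and 171 RPKM in PBS neutrophils and 151, 181 and 168 RPKM in MC-21 neutrophils, in the same order of replicates. These values lay within a 1.31-fold range, with MC-21 libraries between the PBS extremes. Its log2 fold change was -0.01 (standard error 0.14, 95% interval -0.32 to 0.30, adjusted p = 0.981). Psmb7, of the trypsin-like subunit, had 45.5, 29.7, 41.1 and 61.0 RPKM in PBS neutrophils and 39.9, 48.6 and 36.0 RPKM in MC-21 neutrophils. Both the highest and the lowest library were PBS libraries, and the log2 fold change was -0.06 (standard error 0.23, 95% interval -0.58 to 0.46, adjusted p = 0.926). After median centring of the libraries, all 3 log2 fold changes turned above 0, to between 0.10 and 0.15.

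These catalytic genes were set against the immunoproteasome gene of the same position, as the log2 ratio of RPKM + 1 in each library. The log2 ratio of Psmb5 to Psmb8 was 0.17, 0.58, 0.58 and 0.01 in PBS replicates 5 to 8 and 0.95, 0.35 and 0.73 in MC-21 replicates 2 to 4. All 7 libraries were above 0, and the groups overlapped (difference 0.34, exact permutation p = 0.2, two-sided, and 0.6 when adjusted over 3 pairs). The order of this pair depends on the division by transcript length. With RPKM multiplied by the length of the longest annotated coding transcript, the means were 183.5 for Psmb5 and 247.4 for Psmb8. The level of Psmb5 is also uncertain because a near-identical copy of its transcript lies elsewhere in the genome. The log2 ratio of Psmb6 to Psmb9 was 3.44, 2.70, 3.04 and 2.74 in PBS neutrophils and 3.53, 2.50 and 3.70 in MC-21 neutrophils, so that the constitutive gene was far above its counterpart in every library (difference 0.26, exact permutation p = 0.486, adjusted p = 0.729). For Psmb7 to Psmb10 the order was the other way, with log2 ratios of -0.70, -1.64, -0.74 and -0.68 in PBS neutrophils and -0.75, -0.84 and -0.81 in MC-21 neutrophils (difference 0.14, exact permutation p = 1, adjusted p = 1). This difference was -0.09 without PBS replicate 6, whose ratio was the lowest. With 1 library left out, the difference for Psmb6 to Psmb9 ran from 0.0348 (without MC-21 replicate 4) to 0.63 (without MC-21 replicate 3), and that for Psmb5 to Psmb8 from 0.21 (without MC-21 replicate 2) to 0.51 (without MC-21 replicate 3). The smallest p that 4 libraries against 3 allow is 0.0286. On the scale multiplied by length, the other pairs kept their order, with means of 133.7 for Psmb6 and 26.6 for Psmb9. They were 50.0 for Psmb7 and 100.8 for Psmb10.

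**Figure D2:**
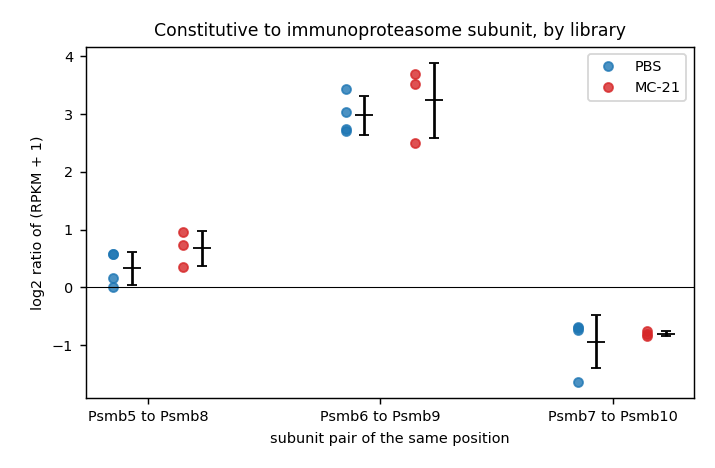
Log2 ratio of (RPKM + 1) of each constitutive catalytic subunit to the immunoproteasome subunit of the same position (vertical axis), with 1 point per library and black bars for the mean and SD of 4 PBS and 3 MC-21 libraries. Psmb6 to Psmb9 lies between 2.50 and 3.70, Psmb5 to Psmb8 between 0.01 and 0.95, and Psmb7 to Psmb10 below 0 in all 7 libraries.

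Among the other subunits of the beta ring, Psmb1 had the highest mean of all members, and Psmb3 was the steadiest. Psmb1 had 267, 235, 218 and 262 RPKM in PBS replicates 5 to 8 and 187, 229 and 238 RPKM in MC-21 replicates 2 to 4. Its groups overlapped, and its log2 fold change was -0.18 (95% interval -0.49 to 0.14, adjusted p = 0.608). Psmb3, named after its values were seen, had 48.5, 43.1, 48.3 and 43.2 RPKM in PBS neutrophils and 37.5, 35.2 and 40.3 RPKM in MC-21 neutrophils. Every MC-21 library was below every PBS library, but the log2 fold change was small, at -0.27 (standard error 0.13, 95% interval -0.58 to 0.03, adjusted p = 0.386 from limma). After median centring it was -0.11. All 4 genes of this role were lower in MC-21 neutrophils, with log2 fold changes from -0.38 to -0.13, and 3 of the 4 were when the libraries were centred.

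The alpha ring, which gates the core, held both the gene with the highest log2 fold change and some of the most variable ones. Its 7 genes had mean levels from 18.4 to 92.6 RPKM and log2 fold changes from -0.55 (Psma1) to 0.22 (Psma2), with a median of -0.03 and no unadjusted p under 0.05. Psma2, named after its values were seen, had 92.9, 81.9, 98.6 and 70.7 RPKM in PBS neutrophils and 120, 106 and 77.2 RPKM in MC-21 neutrophils. Its groups overlapped (adjusted p = 0.630). Single libraries moved these values. Without MC-21 replicate 2 the log2 fold change of Psma1 was -1.11 and that of Psma2 0.0847, and without MC-21 replicate 4 they were -0.33 and 0.40. The median of the ring ran from -0.36 (without PBS replicate 7) to 0.14 (without MC-21 replicate 4) and was 0.13 after median centring. Psma5 was steady, with a within-group SD of 0.11 on the log2 scale, between 46.6 and 57.7 RPKM in all 7 libraries.

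In the base of the 19S particle, the 6 ATPases (Psmc1 to Psmc6) and the 3 other genes were all lower in MC-21 neutrophils, none with an unadjusted p under 0.05. The ATPases had log2 fold changes from -0.40 (Psmc5) to -0.02 (Psmc4), with a median of -0.16. The 3 others, the scaffold genes Psmd1 and Psmd2 and the ubiquitin receptor gene Psmd4, had log2 fold changes from -0.27 to -0.16. All 8 lid genes taken by the symbol rule were lower as well. Their log2 fold changes ran from -0.72 (Psmd14) to -0.09 (Psmd12), with a median of -0.18 and a lowest adjusted p of 0.430. After median centring, 3 of the 6 ATPases, 2 of the 3 others and 4 of the 8 lid genes were below 0. Without MC-21 replicate 4, 4 of the 6 ATPases and 5 of the 8 lid genes were below 0.

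The assembly chaperones had no adjusted p under 0.465. Those of the 19S base, Psmd5, Psmd9 and Psmd10, had mean levels from 5.95 to 9.37 RPKM and log2 fold changes from -0.28 to -0.03. The chaperones of the core, Psmg1 to Psmg4, had mean levels from 10.2 to 50.3 RPKM, with 2 log2 fold changes below 0 and 2 above. Psmg2, named after its values were seen, had 21.2, 17.9, 15.3 and 15.7 RPKM in PBS neutrophils and 14.8, 14.8 and 14.3 RPKM in MC-21 neutrophils. The groups did not overlap, by a gap that was narrow beside the spread of the PBS libraries (log2 fold change -0.23, 95% interval -0.60 to 0.13, adjusted p = 0.549). When MC-21 replicate 4 was left out, 1 member (2.33%) had an unadjusted p under 0.05, against 11.2% of all genes. This was Psmg1, named after its values were seen, with a log2 fold change of 0.51 then and 0.17 with all libraries.

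Of the activators, Psme1, which encodes the alpha subunit of the PA28 ring, showed the lowest p of all members. Psme1, on chromosome 14 from 56196960 to 56200366 (mm9, plus strand), had 223, 183, 207 and 289.6 RPKM in PBS replicates 5 to 8 and 157, 173 and 139.9 RPKM in MC-21 replicates 2 to 4. Every MC-21 library was below every PBS library, and PBS replicate 8 was the highest. The means were 226 ± 45.8 RPKM (SD, n = 4) and 157 ± 16.6 RPKM (SD, n = 3). The log2 fold change was -0.51, with a standard error of 0.17. Its unadjusted p was 0.0153 and its adjusted p from limma 0.237, between 0.155 and 0.465 over the other settings tried. The log2 fold change was -0.34 after median centring (unadjusted p = 0.0599) and -0.43 without MC-21 replicate 4 (unadjusted p = 0.0568). The summed markers of monocytes and macrophages separated the groups in the same direction, with 244.8 to 313.9 RPKM in MC-21 libraries against at least 524.9 RPKM in PBS libraries, and their part in the Psme1 difference was not tested.

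Psme2, which encodes the beta subunit of the same PA28 ring, was listed at a small part of the level of Psme1. It had 2.45, 2.09, 3.20 and 7.24 RPKM in PBS neutrophils and 3.17, 5.201 and 4.02 RPKM in MC-21 neutrophils, which stood for an estimated 6.51 to 27.6 reads per library, if the length used was that of the longest annotated coding transcript. The groups overlapped (log2 fold change 0.21, 95% interval -0.54 to 0.96, adjusted p = 0.808). A copy of Psme2 on chromosome 11, from 48758857 to 48759650 (mm9), was 99.4% identical over 794 bases, or 82.5% of the transcript, and is listed in the table as Psme2b. Psme2b, which the symbol rule did not take, had 139, 171, 134 and 152 RPKM in PBS neutrophils and 139, 140.2 and 115 RPKM in MC-21 neutrophils (log2 fold change -0.18, adjusted p = 0.605). These levels were much nearer to those of Psme1. How reads that map to both places were assigned is not given in the sources used here, so the levels of Psme2 and Psme2b cannot be told apart.

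The remaining activators and the inhibitor were expressed at low to moderate levels. Psme3, of the nuclear PA28 gamma ring, had 16.6, 13.99, 17.8 and 19.1 RPKM in PBS neutrophils and 15.6, 10.1 and 12.2 RPKM in MC-21 neutrophils. MC-21 replicate 2 lay among the PBS libraries, and the other two MC-21 libraries lay below them (log2 fold change -0.40, standard error 0.19, 95% interval -0.83 to 0.02, adjusted p = 0.368). Psme4, of the PA200 activator, was the lowest member, with 1.40, 2.56, 0.934 and 1.06 RPKM in PBS neutrophils and 1.52, 1.27 and 1.73 RPKM in MC-21 neutrophils. All MC-21 libraries lay between the PBS extremes, with a log2 fold change of 0.05 (95% interval -0.52 to 0.62, adjusted p = 0.949) that was -0.06 without PBS replicate 7. Psmf1, of the inhibitor PI31, had 8.13, 6.58, 7.61 and 6.03 RPKM in PBS neutrophils and 6.37, 8.30 and 6.16 RPKM in MC-21 neutrophils. Its groups overlapped (log2 fold change -0.03, 95% interval -0.44 to 0.38, adjusted p = 0.959), and its log2 fold change was 0.14 with centred libraries.

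**Figure D3:**
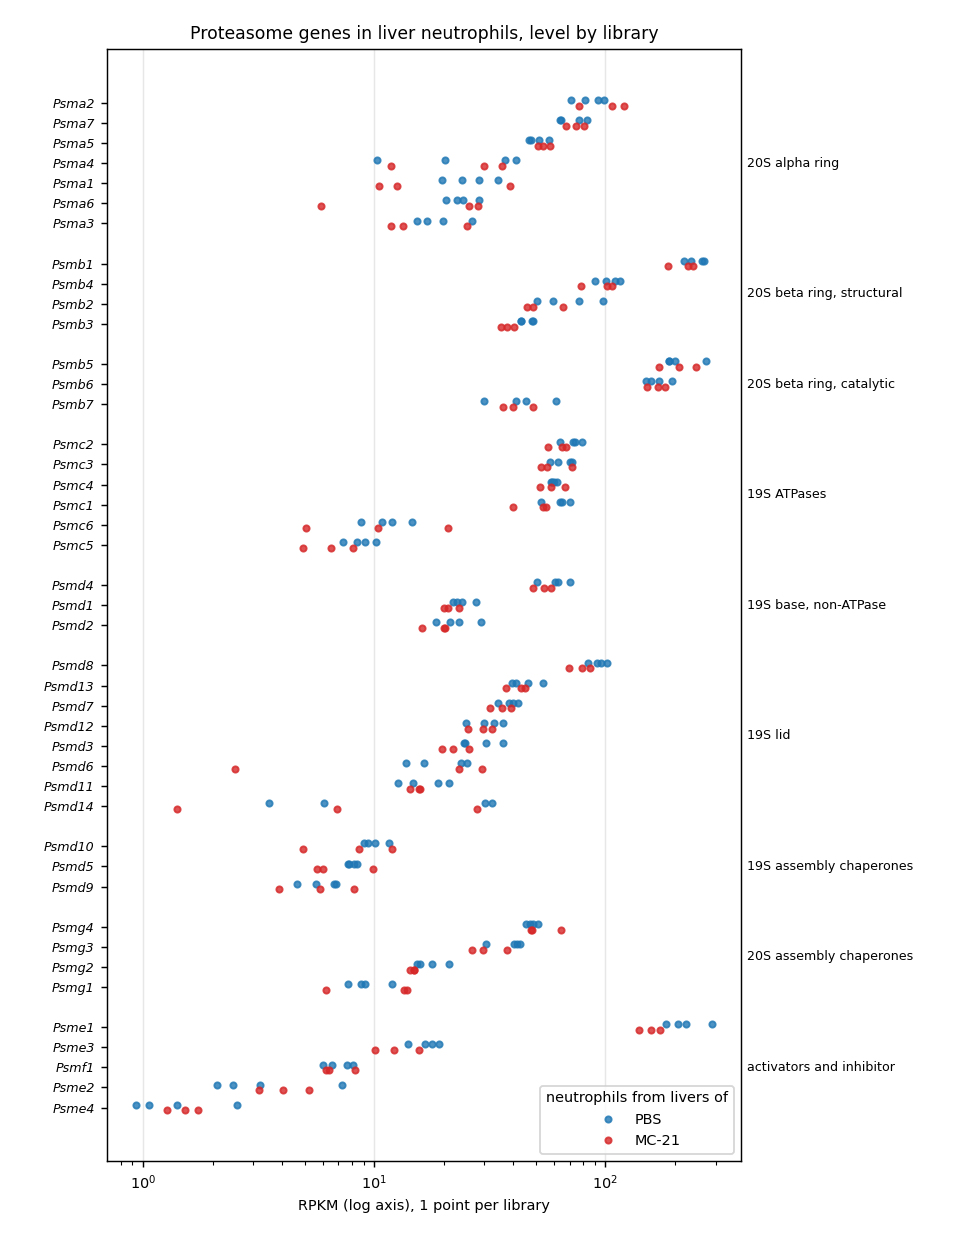
RPKM (log axis, horizontal) of each of the 43 members in each of 4 PBS libraries (blue) and 3 MC-21 libraries (red), grouped by role and ordered within a role by mean. Most members hold a narrow range across all 7 libraries, while Psmd14 spreads from 1.40 to 32.2 RPKM, and the red points of Psme1, Psmb3 and Psmg2 lie below the blue ones.

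The promoters of Psme1 and Psmb3 are shown because both genes had no overlap between groups and both hold a match to the interferon-stimulated response element, and those of Psmb5 and Psmb6 because these catalytic genes hold a match to the antioxidant response element, the site of NRF1 and NRF2. The sequences are from RefSeq (GRCm38.p6), 5′ to 3′ on the gene's strand, from 250 bases before to 50 bases after the start, with the matched bases in capitals. They lie at chr14:55578244-55578543 (plus strand), chr11:97703184-97703483 (plus), chr14:54617946-54618245 (minus) and chr11:70525107-70525406 (plus). The match begins 9 bases after the start in Psme1 and 163, 47 and 9 bases before it in Psmb3, Psmb5 and Psmb6.
Psme1: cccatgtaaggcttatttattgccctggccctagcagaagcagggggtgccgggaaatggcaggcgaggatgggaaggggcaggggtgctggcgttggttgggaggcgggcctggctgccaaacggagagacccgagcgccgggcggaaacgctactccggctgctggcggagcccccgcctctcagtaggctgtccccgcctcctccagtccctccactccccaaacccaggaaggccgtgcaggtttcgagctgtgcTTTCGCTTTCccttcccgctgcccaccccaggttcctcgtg
Psmb3: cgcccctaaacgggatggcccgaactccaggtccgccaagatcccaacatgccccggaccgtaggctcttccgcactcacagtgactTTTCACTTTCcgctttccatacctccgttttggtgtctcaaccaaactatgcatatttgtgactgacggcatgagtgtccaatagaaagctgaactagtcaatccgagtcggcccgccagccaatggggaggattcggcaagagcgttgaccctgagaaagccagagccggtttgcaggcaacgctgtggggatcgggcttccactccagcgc
Psmb5: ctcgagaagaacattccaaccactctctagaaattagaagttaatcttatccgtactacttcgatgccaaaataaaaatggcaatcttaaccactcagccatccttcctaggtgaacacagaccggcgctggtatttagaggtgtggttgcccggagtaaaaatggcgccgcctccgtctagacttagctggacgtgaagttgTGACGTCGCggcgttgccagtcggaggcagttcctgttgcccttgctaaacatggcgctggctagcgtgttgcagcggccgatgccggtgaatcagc
Psmb6: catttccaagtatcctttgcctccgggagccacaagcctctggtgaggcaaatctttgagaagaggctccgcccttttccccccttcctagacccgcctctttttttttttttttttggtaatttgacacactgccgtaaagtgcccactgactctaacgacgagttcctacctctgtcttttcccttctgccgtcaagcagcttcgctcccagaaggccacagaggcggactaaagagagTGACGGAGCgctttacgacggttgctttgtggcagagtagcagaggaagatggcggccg

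Motifs were searched on both strands of the promoters of 36 members found in the RefSeq table, beside 7448 tested genes found there. Psmg2, which also had no overlap between groups, was not among these 36 members and was not searched. The interferon-stimulated response element was searched as a pair of GAAA repeats with any 2 bases between them. It was in 5 members (13.9%), against 3.97% of tested genes, and these were Psme1, Psmb3, Psmd4, Psmd9 and Psmg4. Their log2 fold changes were -0.51, -0.27, -0.17, -0.03 and 0.13. The antioxidant response element (TGACNNNGC) was in 6 members (16.7%), Psmb5, Psmb6, Psmc6, Psmd9, Psmd12 and Psme4, against 17.3% of tested genes. The ETS site (CCGGAA) was in 20 members (55.6%) against 32.8%, the GC box (GGGCGG) in 22 (61.1%) against 68.4%, the CCAAT box in 12 (33.3%) against 42.1%, and the interferon-gamma activated site (TTCNNNGAA) in 2 (5.56%) against 8.31%. A match says only that these letters are in the window.

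Subunits that stand side by side in a complex at equal numbers had mRNA levels that differed several-fold. Over the 14 genes of the constitutive core, the SD of log2 mean RPKM was 1.21, and the highest gene, Psmb1 with 234 RPKM, was 12.7-fold above the lowest, Psma3 with 18.4 RPKM. Among the ATPases the SD was 1.40, and Psmc2 with 68.4 RPKM was 8.76-fold above Psmc5 with 7.80 RPKM. The 8 lid genes taken by the symbol rule were more even, with an SD of 0.84 and a 5.63-fold range from Psmd8 with 86.9 RPKM to Psmd14 with 15.4 RPKM. Shfm1, of a further lid subunit, was not taken by that rule and is counted here with the associated proteins. It had a mean of 406.5 RPKM, above all 8, so the narrower spread holds only for the lid genes taken by the rule. Since reads of 3′ libraries come from transcript ends, the levels were also multiplied by the length of the gene's longest annotated coding transcript, which approximates them without the division by length, since the length that the authors used is not given. On that approximate scale the ranges were 10.7-fold for the core (Psma2 to Psma6), 11.9-fold for the ATPases and 5.52-fold for the same 8 lid genes. The order of the 43 members was close in every pair of libraries, with Spearman's rho over genes from 0.888 to 0.984 over 21 pairs. 

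Most members varied little between livers of a group, about as genes that averaged at least 5 RPKM did. The within-group SD of log2(RPKM + 1) had a median of 0.23 over the members, 0.26 over genes that averaged at least 5 RPKM and 0.28 over all genes tested, and 29 of the 43 members were below the last of these. In 7 members (16.3%) the highest library was more than 3-fold above the lowest, against 26.8% of all genes and 13.98% of the 5860 genes that averaged at least 5 RPKM.

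The exceptions were the 6 members with the largest within-group SD, which were chosen after their values were seen. Psmd14 encodes the lid enzyme that cuts ubiquitin chains from substrates, and had 3.52, 30.0, 32.2 and 6.06 RPKM in PBS replicates 5 to 8 and 27.97, 6.93 and 1.40 RPKM in MC-21 replicates 2 to 4. PBS replicates 6 and 7 and MC-21 replicate 2 were high and the other 4 libraries low, so that the difference ran within both groups. With the same assumption on length, these values stood for an estimated 15, 154, 132 and 37 reads and 154, 17 and 6 reads. Its within-group SD of 1.61 was at percentile 99.9 of all genes tested, and its log2 fold change of -0.72 had a 95% interval from -2.75 to 1.32. Psmd6, also of the lid, had 13.7, 23.6, 25.2 and 16.4 RPKM in PBS neutrophils and 29.2, 23.3 and 2.50 RPKM in MC-21 neutrophils. MC-21 replicate 4 was far below the other 6 libraries there, at an estimated 9.56 reads. Psma6, of the alpha ring, had 28.5, 22.9, 24.2 and 20.4 RPKM in PBS neutrophils and 28.2, 25.6 and 5.87 RPKM in MC-21 neutrophils, with the same library apart.

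The other three were less extreme. Psma4 had 41.2, 20.3, 10.3 and 36.9 RPKM in PBS neutrophils and 35.8, 29.8 and 11.8 RPKM in MC-21 neutrophils, and a near-identical copy of its whole transcript lies elsewhere in the genome. Psma1 had 19.6, 34.2, 24.0 and 28.4 RPKM in PBS neutrophils and 38.8, 10.5 and 12.6 RPKM in MC-21 neutrophils. Psmc6, of the ATPase ring, had 8.79, 14.6, 10.8 and 11.9 RPKM in PBS neutrophils and 20.9, 10.4 and 5.06 RPKM in MC-21 neutrophils. In both genes MC-21 replicate 2 was the highest library and another MC-21 library the lowest.

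Over these 6 members the mean of log2(RPKM + 1) was 4.00, 4.61, 4.35 and 4.20 in PBS replicates 5 to 8 and 4.94, 4.05 and 2.65 in MC-21 replicates 2 to 4. Over the other 37 members it was 5.17, 5.11, 5.07 and 5.17 and then 5.06, 5.01 and 4.91. MC-21 libraries thus held both the highest and the lowest level of the 6 genes. The range of the other 37 was narrower, which follows from how the 6 were chosen, and every MC-21 library lay below every PBS library there. The median over all genes tested did the same, with 2.89 to 3.07 in MC-21 libraries and 3.13 to 3.23 in PBS libraries. MC-21 replicate 4 was the lowest library for 15 of the 43 members (34.9%) and for 27.8% of all genes tested. The 6 members had transcripts of lower GC content, with a median of 44.5% (36.2 to 47.3%) against 51.0% (40.1 to 58.3%) for the other 37 and 51.2% over 8590 tested genes. Across the 43 members, Spearman's rho between within-group SD and GC content was -0.46, against -0.11 across those tested genes. The part of GC content in these differences was not tested.

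**Figure D4:**
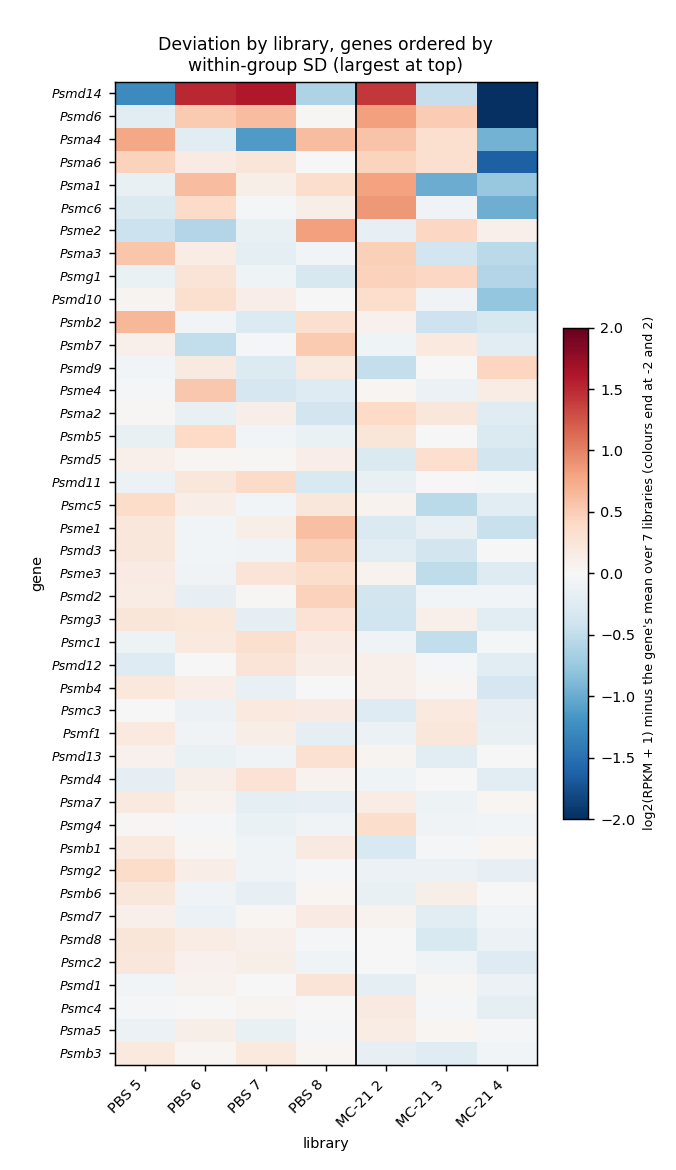
Deviation of log2(RPKM + 1) from the gene's mean over 7 libraries (colour, ending at -2 and 2) for each of the 43 members (rows, ordered by within-group SD) in each library (columns). The 6 rows at the top carry most of the colour, with MC-21 replicate 2 high and MC-21 replicate 4 low, while the rows below are paler in both groups.

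For 10 of the 43 members, a sequence of at least 200 bases with at least 95% identity to the transcript was found elsewhere in mm9, and their levels are uncertain, since how reads with several matches were counted is not given in the sources used here. They were Psma3, Psma4, Psma5, Psmb3, Psmb5, Psmc1, Psmc6, Psmd2, Psmd11 and Psme2. For Psmb5 the copy covered all 871 bases of the transcript, at 98.97% identity, on chromosome 7 from 3181090 to 3181960. The other 33 members, Psme1, Psmd6 and Psmd14 among them, had no such copy.

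No partner gene of the proteasome differed between the groups after adjustment either. Of 38 listed symbols of associated proteins, ubiquitin genes, shuttle factors and transcriptional regulators, 33 were in the table and 30 were tested. None of the 30 had an adjusted p under 0.05 with limma, against 0.625% of all genes. An unadjusted p under 0.05 was reached by 1 (3.33%), against 14.7% of all genes. In MC-21 neutrophils 21 were lower (70%) and 9 higher, about the share over all genes, of which 69.4% were lower. The median log2 fold change was -0.11, against -0.15 over all genes tested. With centred libraries 11 of the 30 were lower, against 4539 of all 9594 genes. The gene with the unadjusted p was Ubqln2, of a shuttle factor, with 6.85, 5.60, 5.198 and 4.32 RPKM in PBS neutrophils and 3.36, 4.53 and 0.540 RPKM in MC-21 neutrophils. MC-21 replicate 3 overlapped the PBS libraries (log2 fold change -0.95, adjusted p = 0.319 from limma). The log2 fold change of Ubqln2 was -0.39 without MC-21 replicate 4 (unadjusted p = 0.1305 from limma). With centred libraries it was -0.78 (unadjusted p = 0.0591 from limma). Ubb, a polyubiquitin gene, was the 1 partner without overlap (3.33%, against 13.3% of all genes). It had 1014, 1088, 1006 and 984.4 RPKM in PBS neutrophils and 1196, 1115 and 1195 RPKM in MC-21 neutrophils (log2 fold change 0.19, adjusted p = 0.441). With centred libraries the log2 fold change of Ubb was 0.36 (unadjusted p = 0.0212 from limma). With quantile normalization it was 0.11 (unadjusted p = 0.275 from limma). Both were named after their values were seen.

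The last step of core assembly depends on Pomp, which had 362, 269.6, 281 and 332 RPKM in PBS neutrophils and 304, 368 and 339 RPKM in MC-21 neutrophils (log2 fold change 0.12, adjusted p = 0.736). Adrm1, of a ubiquitin receptor of the base, had 86.5, 79.8, 75.2 and 92.6 RPKM in PBS neutrophils and 91.7, 66.8 and 61.9 RPKM in MC-21 neutrophils (log2 fold change -0.20, adjusted p = 0.624). In both genes the groups overlapped. Nfe2l1, of the factor NRF1 that raises proteasome genes when the protease is inhibited, had 16.4, 12.0, 13.3 and 22.1 RPKM in PBS neutrophils and 8.80, 15.9 and 17.6 RPKM in MC-21 neutrophils (log2 fold change -0.18, adjusted p = 0.794). Nfe2l2, of the oxidative stress factor NRF2, had 33.0, 45.8, 45.0 and 42.2 RPKM in PBS neutrophils and 48.0, 41.5 and 29.2 RPKM in MC-21 neutrophils (log2 fold change -0.08, adjusted p = 0.872). Neither regulator separated the groups.

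The 3 libraries in which Psmd14 was high were also the 3 highest in 6 of the 30 partners (20%), in 4 of the 43 members (9.3%), Psmd14 included, and in 7.3% of all genes tested. This pattern was chosen after its values were seen. The partners were Uchl5, Akirin2, Ngly1, Txnl1, Zfand5 and Nfe2l2, and the other members were Psmd6, Psmd10 and Psmc4. The pattern counts rank alone, and some of the differences were small. Psmc4 stayed within a 1.28-fold range, and Nfe2l2 within a 1.65-fold range. Uchl5, of another deubiquitinase of the 19S particle, had 0.977, 10.9, 14.02 and 3.00 RPKM in PBS neutrophils and 12.8, 2.38 and 2.72 RPKM in MC-21 neutrophils. Akirin2, of the factor that brings proteasomes into the nucleus, had 9.35, 19.2, 18.2 and 8.86 RPKM in PBS neutrophils and 19.2, 8.77 and 1.84 RPKM in MC-21 neutrophils. Ngly1, of the enzyme that removes sugars from NRF1, had 0.623, 4.04, 5.44 and 2.00 RPKM in PBS neutrophils and 5.02, 0.650 and 1.24 RPKM in MC-21 neutrophils. Of these 3 partners, Uchl5 had the widest range, with PBS replicate 7 the highest library.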

How the data were processed

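The authors sequenced 3′ RNA-seq libraries of neutrophils sorted from 7 livers on a NextSeq, aligned them with HISAT 0.1.5 (build mm9), used SAMtools for conversion and computed RPKM per gene in Partek 6.6, and these RPKM values are the ones deposited. The transcript annotation, the handling of reads with several matches, molecular barcodes and any filter are not given in the sources used here. Read counts were not analysed, and the depth was estimated from the steps of low RPKM values (1115 genes, 490 of them within 1% of the most frequent depth; of 5947 low values, 74.2% fell on a whole read, with a tolerance of 0.1). Levels were compared as log2(RPKM + 1), computed from the deposited values, for the 9594 genes that averaged at least 1 RPKM, with limma 3.58.1 in R 4.3.3 (lmFit, and eBayes with a trend) and Benjamini-Hochberg adjustment. This fit was tested on simulated data, with changes larger than the log2 fold change of any member. That test therefore does not show how well changes of the members' size would be found. Ratios between groups were tested by exact permutation, two-sided, over 35 assignments of libraries to groups. Groups came from sample titles, and 0 columns of the table were left unused.

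The members and lists were chosen with earlier results of these data known. Values in all libraries are given for the 3 catalytic subunits, the activators and inhibitor, the highest and lowest member by mean RPKM, members with an adjusted p under 0.05 or with both an unadjusted p under 0.05 and no overlap between groups, and, of the partners, by the same thresholds, with Pomp, Adrm1, Nfe2l1 and Nfe2l2 in any case. The alternatives were a pseudocount of 0.1, no filter, a mean of at least 5 RPKM, median centring, quantile normalization, no trend, no moderation, leaving out each library in turn, and a GC content correction (lowess with a span of 0.3) chosen after the data were seen. Copies were sought with BLAST+ 2.17.0 in mm9. Coordinates of genes are those of GENCODE vM1 on mm9. Promoters are those of RefSeq on GRCm38.p6. Other tools were Python 3.11.15, numpy 2.4.6, pandas 2.3.3, scipy 1.17.1 and matplotlib 3.10.9.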

Additional observations from a re-analysis of the deposited data

Results flagged for a closer look

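Among the 4 PBS libraries, 3 of 46 results looked at had 1 library far from the others by Dixon's ratio, at the critical value for groups of 4, which chance alone passes in about 1 of 20 groups. Psmb5 had 273 RPKM in PBS replicate 6, against 188.5 to 199.9 RPKM in the other PBS libraries (ratio 0.843). Psmg3, of a core assembly chaperone, had 30.5 RPKM in PBS replicate 7, against 40.4 to 42.7 RPKM in the others (ratio 0.837). The log2 ratio of Psmb7 to Psmb10 was -1.64 in PBS replicate 6, against -0.74 to -0.68 in the others (ratio 0.938). Groups of 3 were not looked at.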

How the results depend on the processing

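Of 289 values under 16 settings, 239 kept their direction, their side of the threshold or their size, and no setting gave a member or partner an adjusted p under 0.05. The count of all genes with an adjusted p under 0.05, which was 60 (41 lower and 19 higher), was 6 with no filter, 4 with no moderation and between 9 (without PBS replicate 8) and 102 (without PBS replicate 6) when libraries were left out. It was 30 lower and 44 higher with centred libraries, 29 and 26 with quantile normalization, and 31 and 36 with the GC correction. Members with an unadjusted p under 0.05 numbered 2 with no filter or no moderation, 0 with centred libraries, and 1 to 5 when a library was left out (11.4%, 12.8%, 11.5% and 10.1 to 15.9% of all genes in the same settings). The 5, without MC-21 replicate 2, were Psme1, Psma1, Psma3, Psme3 and Psmc5. Members without overlap numbered 1 with quantile normalization and 5 to 10 with 1 library fewer (10, or 23.3%, without MC-21 replicate 2), against 11.1% and 16 to 24.3% of all genes. The median log2 fold change of the members was 0.00494 with centred libraries and -0.19 to -0.06 when a library was left out. Log2 fold changes of 15 members turned above 0 with centring, 9 with quantile normalization and 12 with the GC correction. Of the genes followed over all settings, Psmb5 was at 0.13 with centring and 0.16 with the GC correction, Psmb6 at 0.15, 0.17 and, with quantile normalization, 0.0168, Psmb7 at 0.10, 0.0541 and 0.0206, and Psmf1 at 0.14, 0.0863 and 0.13. With a library left out, these ranged from -0.16 to 0.10 (Psmb5), -0.0706 to 0.0624 (Psmb6), -0.23 to 0.11 (Psmb7) and -0.15 to 0.0414 (Psmf1), Psme4 from -0.0585 to 0.24, and the log2 ratio difference of Psmb7 to Psmb10 from -0.0933 to 0.23. Causes were not tested. No paired analysis was possible because the PBS and MC-21 groups share no replicate numbers. Depth limits Psme2, Psme4 and the low libraries of Psmd14, Psmd6, Psma6 and Psmc5, which rest on few reads. In MC-21 replicate 4, Psmd6 stood for an estimated 9.56 reads and Psma6 for 17. In MC-21 replicate 3, Psmc5 stood for an estimated 10.3 reads.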
